A study of Homo sapiens with 54 samples.

Results

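The amyloid secretases were followed in H4 cells, a human line labelled glioneuronal, after transfection of small RNAs of the miR-15/107 group and of other molecules. The 8 genes were BACE1, BACE2, APP, ADAM10, PSEN2, NCSTN, APH1A and PSENEN, of 18417 genes that had at least 1 probe set annotated to that gene alone on the Affymetrix Human Gene 1.0 ST array. Members were chosen by symbol, and BACE1 was chosen as a known target of miR-107. Each of the 8 genes had 1 probe set, and all 8 were among the 11050 genes tested, which left out the dimmest 40% by mean value over the arrays. Cells received a mimic of miR-103, miR-107, miR-16 or miR-195 (the miR-15/107 group), one of 2 altered forms of miR-107 (miR-107-mut1, miR-107-mut2), miR-320 (a physiological miRNA outside the group), miR-15b* (labelled an antisense control) or a commercial negative control RNA. The name miR-15b* is that of the design text, while the sample titles write miR-15b, the name of the opposite arm, which belongs to the miR-15/107 group. Which molecule these samples received cannot be settled from the labels, and every value given for miR-15b* carries that doubt. RNA was collected 48 h later from all groups in 2 fractions: the messages that co-precipitated with Argonaute under the monoclonal antibody 2A8 (the IP), and the total RNA of the lysate. There were 3 biological replicates of each transfection in each fraction, 54 arrays in 18 groups. All cells came from 1 line in culture, the amount of each small RNA reached in the cells was not analysed here, and Argonaute holds the cells' own miRNAs as well as the transfected molecule.

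BACE1 is the β-secretase, the membrane protease that makes the first cut of the amyloid precursor protein APP on the path to amyloid-β. BACE2, its closest relative, also cuts APP, mostly at other sites. ADAM10 is the main constitutive α-secretase of neurons and cuts APP within the amyloid-β stretch, so that no amyloid-β forms from that molecule. The second cut on the amyloid path is made by γ-secretase, a complex of a catalytic presenilin (PSEN2), nicastrin (NCSTN), an APH1 protein (APH1A) and the small subunit PEN-2 (PSENEN). A miRNA guides Argonaute to messages that pair mainly with its seed, bases 2 to 8 from the 5′ end, and lowers their stability or translation. In human brain, miR-107 is known for a decrease early in Alzheimer's disease.

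The mature miRNAs that carry the names of the transfected mimics are shown because the comparisons turn on how much of their 5′ ends they share. The sequences are RefSeq's on GRCh38.p14, written 5′ to 3′ with the seed in capitals. The sequences of the mimics themselves were not used here, and the miR-15b* sequence applies only if the name in the design text is the right one.
miR-103: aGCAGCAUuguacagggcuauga
miR-107: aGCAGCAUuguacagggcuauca
miR-16: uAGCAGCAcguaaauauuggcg
miR-195: uAGCAGCAcagaaauauuggc
miR-15b*: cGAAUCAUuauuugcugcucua
miR-103 (hsa-miR-103a-3p) is encoded at chr5:168560904-168560926 on the minus strand and at chr20:3917541-3917563 on the plus strand, and miR-107 at chr10:89592756-89592778 on the minus strand. miR-16 (hsa-miR-16-5p) lies at chr13:50049027-50049048 on the minus strand and at chr3:160404754-160404775 on the plus strand. miR-195 (hsa-miR-195-5p) lies at chr17:7017667-7017687 on the minus strand, and miR-15b* (hsa-miR-15b-3p) at chr3:160404645-160404666 on the plus strand. miR-103 and miR-107 have the same seed and differ at 1 of 23 bases, G22C counted from the 5′ end. miR-16 and miR-195 share another seed and differ at 2 of the 21 bases compared, G10A and U11G. The 4 miRNAs of the group hold the run AGCAGCA, at bases 1 to 7 in miR-103 and miR-107 and at bases 2 to 8 in miR-16 and miR-195. miR-15b* does not hold that run and holds its reverse complement, UGCUGCU, at bases 13 to 19.

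All values below are the authors' RMA values on a log2 scale, so that a difference of 1 is a 2-fold change, and tests are limma fits adjusted over the 11050 genes with a call at an adjusted p under 0.05. Lysate arrays averaged 7.11 to 7.17 over all probe sets and IP arrays 3.61 to 3.65, so levels were not set across fractions except after a further normalization. In the lysate, replicate 2 of miR-103, of miR-16 and of miR-15b* stood apart from the other arrays, with median correlations of 0.929, 0.889 and 0.866 against 0.965 for the median array. In the IP, replicate 1 of miR-15b* stood apart, at 0.821 against 0.928. Control lysates showed VIM at 12.5 and CD44 at 12.9, above 98.8% and 99.4% of genes. Of the neuronal markers, ENO2 was at 9.0 and MAP2 at 8.14, above 70.8% and 56.9% of genes. The other neuronal markers were lower, RBFOX3 at 7.46, NEFL at 6.69 and SYP at 6.34, above 45.6%, 32.8% and 27.4%. The glial markers NES, GFAP and S100B were at 6.75, 6.51 and 4.21. Of the markers of other cell types, PTPRC, a leukocyte marker, was at 3.59 and ALB, the hepatocyte marker, at 4.06. CD68, another of these markers, was at 10.66, above 91.0% of genes. PECAM1, CDH5 and HBB were above 22.4%, 21.2% and 20.5% of genes. The markers of other cell types were thus not all low. S100B, a glial marker, was above 4.83% of genes.

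In the lysate, BACE1 was lower after each of the 4 miRNAs of the miR-15/107 group than after the negative control, and lower after miR-107-mut2 and miR-320 as well. With all arrays, 6 of its 8 comparisons with the control passed the test, against 0 of the 56 comparisons of the other 7 genes, of which 3 had an unadjusted p under 0.05 in limma. Without the arrays that stood apart, ADAM10 was called higher in 6 comparisons and APH1A lower in 3, and the 6 BACE1 calls held. The array measures RNA per unit of total RNA, so fewer cells with BACE1 message and less message per cell cannot be told apart. All 8 comparisons share the same 3 control arrays.

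BACE1 gave 10.20, 10.35 and 10.30 on the 3 miR-103 arrays and 10.23, 10.33 and 10.29 on the miR-107 arrays, in the order of the replicate numbers. It gave 10.41, 10.54 and 10.27 with miR-16 and 10.36, 10.31 and 10.36 with miR-195. The negative control arrays gave 11.07, 11.10 and 11.18, above every array of those 4 groups. With miR-103 the change was -0.83 ± 0.10 (SE), or 56.2% of the control level, with an adjusted p of 4.0e-06 in limma. With miR-107 it was -0.83 ± 0.10, or 56.1% of the control level (adjusted p = 3.7e-06). With miR-195 it was -0.77 ± 0.10, or 58.5% of the control level (adjusted p = 1.3e-05), and with miR-16 -0.71 ± 0.10, or 61.2% (adjusted p = 3.4e-05). These changes stood among many: 17.2% of all genes tested were called with miR-103, 14.9% with miR-107, 17% with miR-16 and 14% with miR-195. A change as low as that of BACE1 or lower was found in 3.65% of genes with miR-103, 3.08% with miR-107, 5.3% with miR-16 and 3.14% with miR-195. Fold for fold, BACE1 was thus in the lower tail of each comparison but not at its end.

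The molecules outside the group split on BACE1. With miR-107-mut2 it gave 10.58, 10.48 and 10.56, all below the control arrays, a change of -0.58 ± 0.10 or 67.1% of the control level (adjusted p = 3.8e-04 in limma, with 13.8% of genes called). With miR-320 it gave 10.51, 10.84 and 10.79, also below every control array, a change of -0.40 ± 0.10 or 75.6% of the control level (adjusted p = 0.031, with 2.96% of genes called). The miR-320 call is the weakest of the 6. It was lost when any 1 control replicate, or miR-320 replicate 1 or 3, was left out (adjusted p 0.053 to 0.23), and the change was -0.30 without miR-320 replicate 1. With miR-107-mut1 BACE1 gave 10.78, 11.08 and 10.96, which overlapped the control arrays, a difference of -0.17 with a 95% confidence interval of -0.39 to 0.04 (adjusted p = 0.41, with 8.77% of genes called). With miR-15b* it gave 10.98, 11.26 and 11.07, on both sides of the control arrays, a difference of -0.01 with an interval of -0.23 to 0.20 (adjusted p = 0.95, with 7.54% of genes called).

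**Figure D1:**
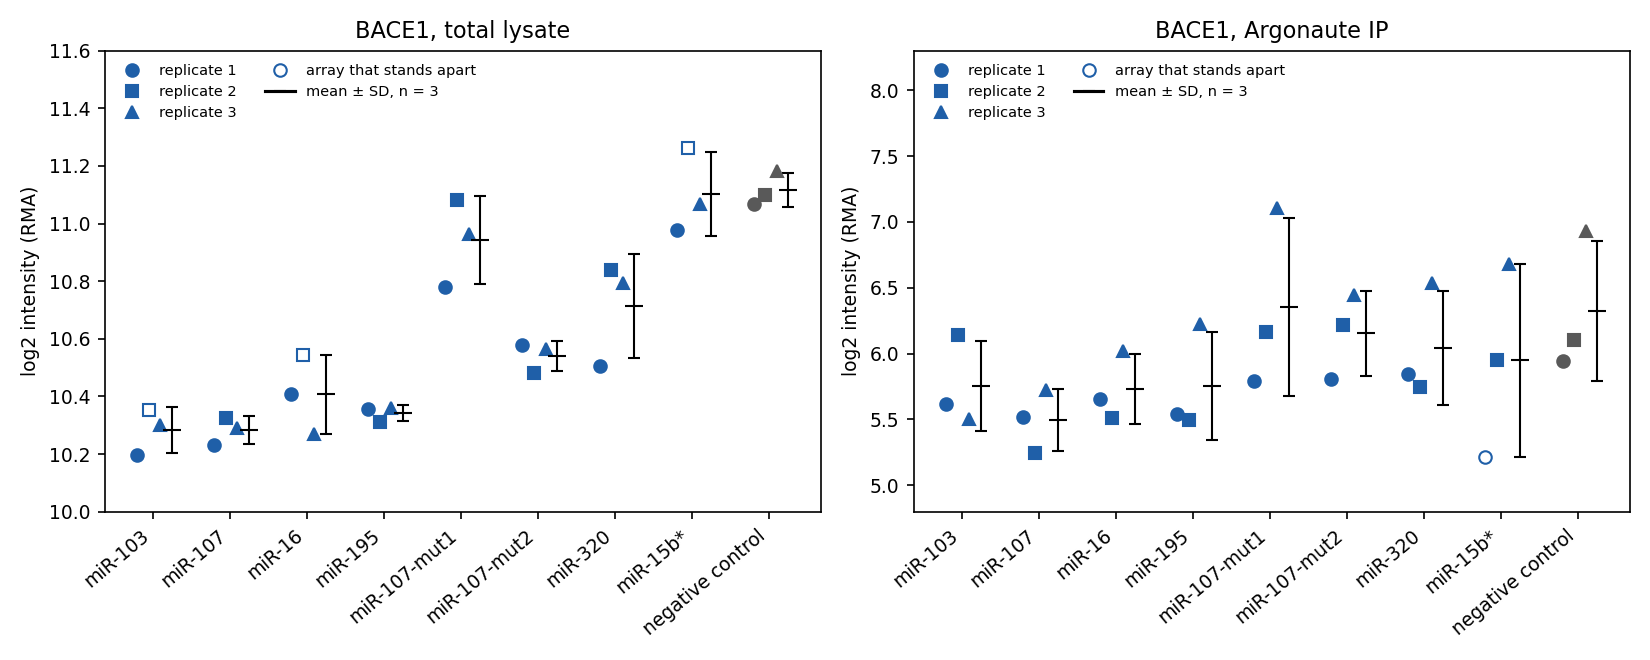
BACE1 on each array, as log2 RMA values, in the total lysate and in the Argonaute IP, by transfection with the negative control at the right. Points are arrays, bars are group means ± SD (n = 3), and open points are arrays that stood apart. In the lysate the 4 miRNAs of the miR-15/107 group lie between 10.20 and 10.54 and the control between 11.07 and 11.18, while in the IP the groups overlap more.

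Set against each other, the molecules gave the following order of BACE1 group means in the lysate, from low to high: miR-107 at 10.28 ± 0.05 (SD, n = 3), miR-103 at 10.28 ± 0.08, miR-195 at 10.34 ± 0.03, miR-16 at 10.41 ± 0.14, miR-107-mut2 at 10.54 ± 0.05, miR-320 at 10.71 ± 0.18, miR-107-mut1 at 10.94 ± 0.15, miR-15b* at 11.10 ± 0.15 and the negative control at 11.12 ± 0.06. miR-103 and miR-107, which share a seed, differed by 0.00, with an interval of -0.21 to 0.21. miR-16 and miR-195 differed by 0.06, with an interval of -0.15 to 0.28. In both of these comparisons 0% of all genes were called. The mean of miR-103 and miR-107 differed from that of miR-16 and miR-195 by -0.09 ± 0.07. The interval was -0.24 to 0.06 (adjusted p = 0.54 in limma, with 10% of genes called). BACE1 thus differed between these pairs by no more than 0.24 at 95% confidence. The pairs also differ in bases past the shared run, so the part of its 1-base offset alone cannot be read from this comparison.

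The altered molecules parted from each other. BACE1 was lower with miR-107 than with miR-107-mut1 by a change of -0.66 ± 0.10 (adjusted p = 7.7e-05 in limma, with 13.5% of genes called). Against miR-107-mut2 the change with miR-107 was -0.26 ± 0.10, and although the arrays did not overlap the adjusted p was 1.0 (unadjusted p = 0.020), in a comparison where 0.0814% of genes were called. miR-107-mut2 itself gave a BACE1 level -0.40 ± 0.10 from that with miR-107-mut1 (adjusted p = 0.010, with 12.7% of genes called), a call lost without miR-107-mut1 replicate 2 (adjusted p = 0.063) or without miR-107-mut2 replicate 2 (adjusted p = 0.051). The mean of the 4 miRNAs of the group was below miR-15b* by a change of -0.77 (adjusted p = 4.5e-07, with 17.9% of genes called) and below miR-107-mut1 by -0.61 (adjusted p = 6.0e-06, with 22.4%). It was below miR-320 by -0.38 ± 0.08 (adjusted p = 0.0018, with 16.8%). Against miR-107-mut2 the mean of the 4 differed by -0.21 (adjusted p = 0.44, with 0.308% called). These comparisons of the 4 together, and of the altered molecules with each other, were added after the values had been seen.

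**Figure D2:**
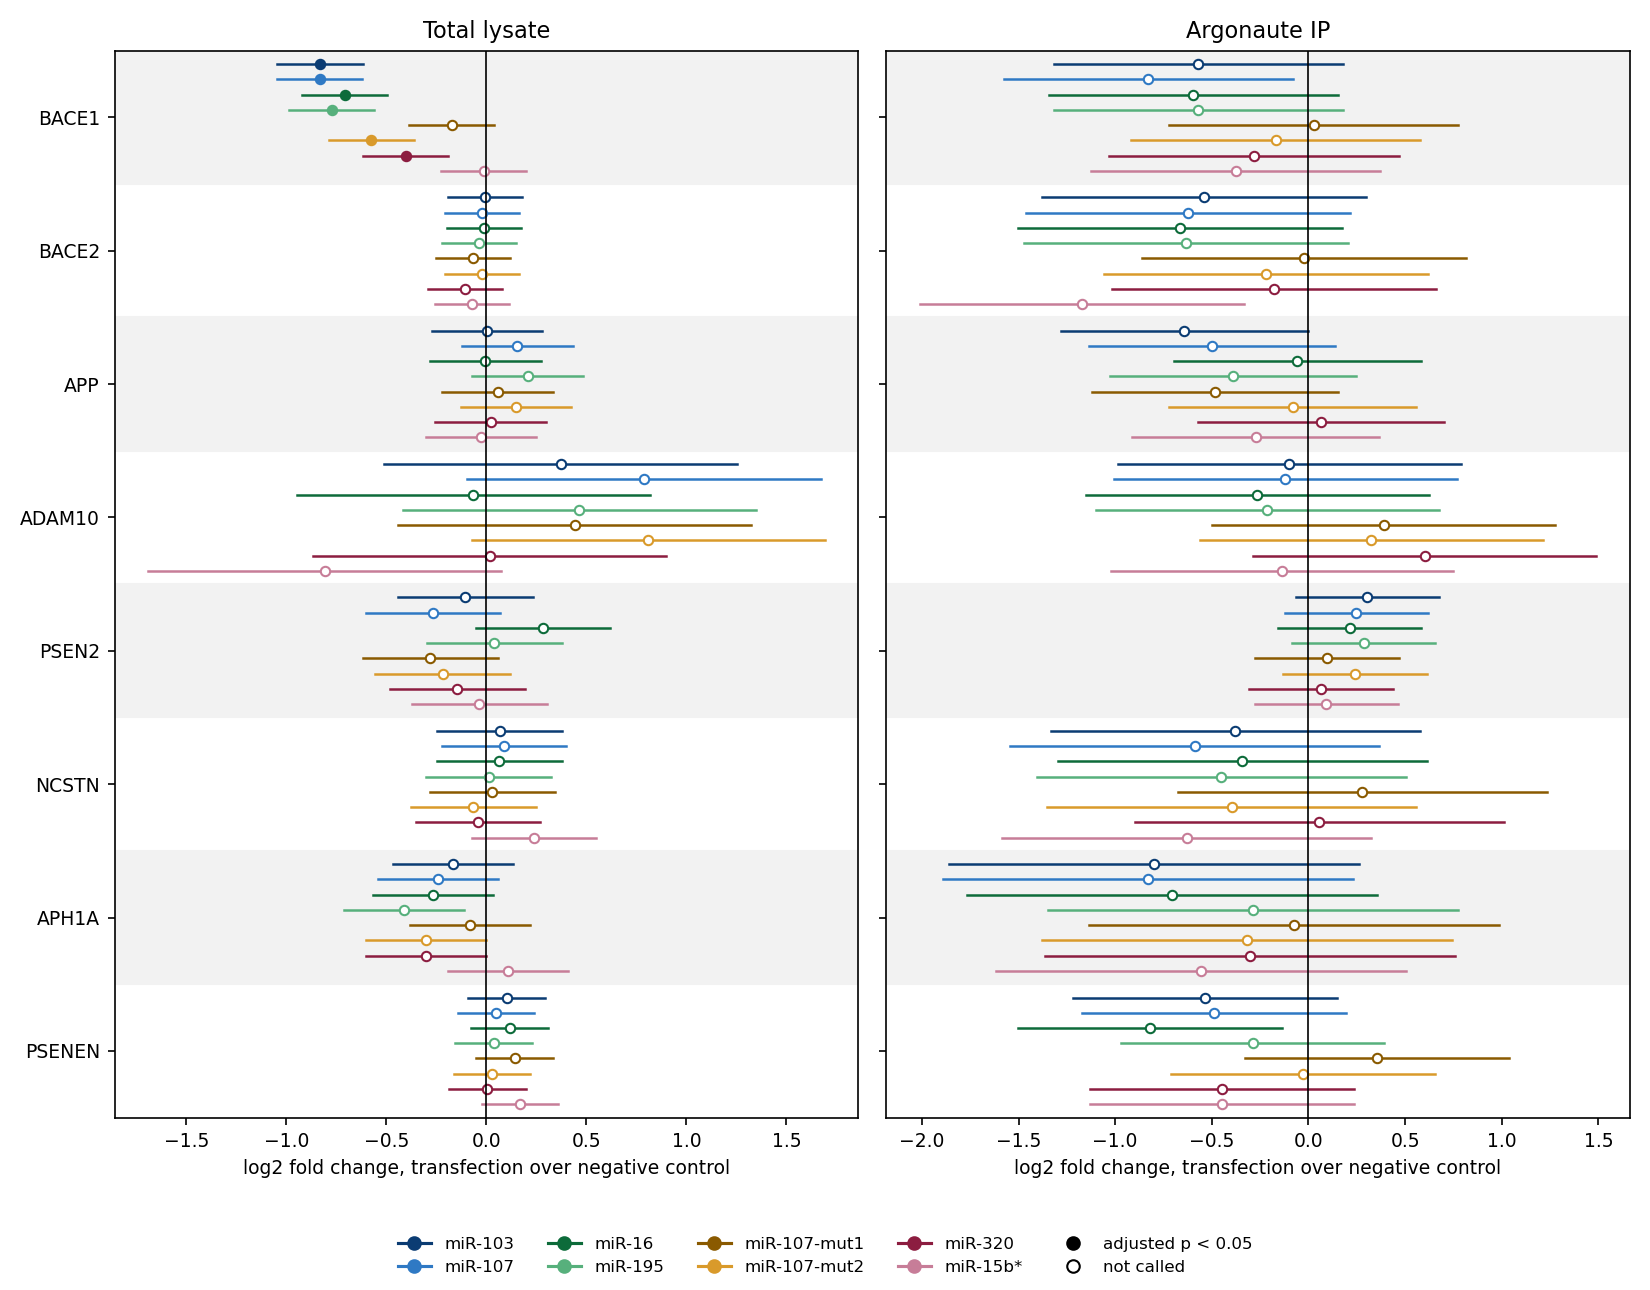
Change of each of the 8 genes in each transfection against the negative control, in log2 units, in the lysate and in the IP, with 95% confidence intervals as bars. Filled points are calls at an adjusted p under 0.05 in limma. The filled points are the 6 lysate changes of BACE1, from -0.83 to -0.40, and no IP change is filled.

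ADAM10, the α-secretase, was the most variable member in the lysate. It gave 11.25, 11.37 and 11.58 with miR-107 and 11.22, 11.54 and 11.50 with miR-107-mut2, against 10.39, 10.78 and 10.67 with the negative control. Each array of those groups, and each array of miR-195 (10.87, 11.33 and 11.04) and miR-107-mut1 (10.84, 11.09 and 11.23), lay above the control arrays. How many of all genes separate in this way was not counted. The miR-320 arrays (10.55, 10.74 and 10.60) lay among those of the control. The other 3 groups each held the array that stood apart. miR-103 gave 11.38, 10.30 and 11.27, miR-16 gave 10.93, 9.44 and 11.27, and miR-15b* gave 10.53, 8.46 and 10.43. In each of these the low value is the array that stood apart. With all arrays, limma gave changes of 0.79 ± 0.43 with miR-107 (adjusted p = 0.27) and 0.81 ± 0.43 with miR-107-mut2 (adjusted p = 0.22), and no call in any of the 8 comparisons.

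Without the 3 lysate arrays that stood apart, ADAM10 was called higher in 6 of 8 comparisons. The change was then 0.79 ± 0.14 with miR-107 (adjusted p = 1.9e-04 in limma), 0.81 with miR-107-mut2 (adjusted p = 1.8e-04) and 0.71 ± 0.15 with miR-103 (adjusted p = 0.0018). With miR-16 it was 0.49 (adjusted p = 0.028), with miR-195 0.46 (adjusted p = 0.016) and with miR-107-mut1 0.44 (adjusted p = 0.028). With miR-320 the difference was 0.02 (adjusted p = 0.97) and with miR-15b* -0.13 (adjusted p = 0.65). Leaving out these arrays raised the share of all genes called to between 9.01% and 31.3% of those tested, so the larger count is not particular to ADAM10. Why these arrays stood apart was not tested.

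APH1A, a γ-secretase subunit, had group means -0.17 to -0.41 from the control in the 6 groups in which BACE1 was called, -0.08 with miR-107-mut1 and 0.11 with miR-15b*, and none passed the test with all arrays. It gave 10.87, 10.54 and 10.71 with miR-195, against 11.08, 11.09 and 11.19 with the negative control. That difference was -0.41 ± 0.14 (adjusted p = 0.060 in limma, 0.047 with the replicate number as a block). miR-107-mut2 gave 10.78, 10.75 and 10.92 (-0.30, adjusted p = 0.17) and miR-320 gave 10.70, 10.82 and 10.94 (-0.30, adjusted p = 0.43). miR-16 gave 10.95, 11.06 and 10.55 (-0.27, adjusted p = 0.23) and miR-107 gave 11.02, 10.83 and 10.79 (-0.24, adjusted p = 0.34). In these 5 groups every array lay below every control array. The share of all genes that separate in this way was not counted, so this only describes the arrays. Those of miR-103, at 10.80, 11.25 and 10.82, overlapped the control, the high value being the array that stood apart. miR-107-mut1 (11.10, 10.99 and 11.03) and miR-15b* (11.05, 11.54 and 11.10) also overlapped the control. Without the arrays that stood apart, APH1A was called lower with miR-195 (-0.41, adjusted p = 0.0043), miR-16 (-0.37, adjusted p = 0.023) and miR-107-mut2 (-0.30, adjusted p = 0.029), and missed the threshold with miR-103 (-0.31, adjusted p = 0.051), miR-320 (-0.30, adjusted p = 0.071) and miR-107 (-0.24, adjusted p = 0.085).

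**Figure D3:**
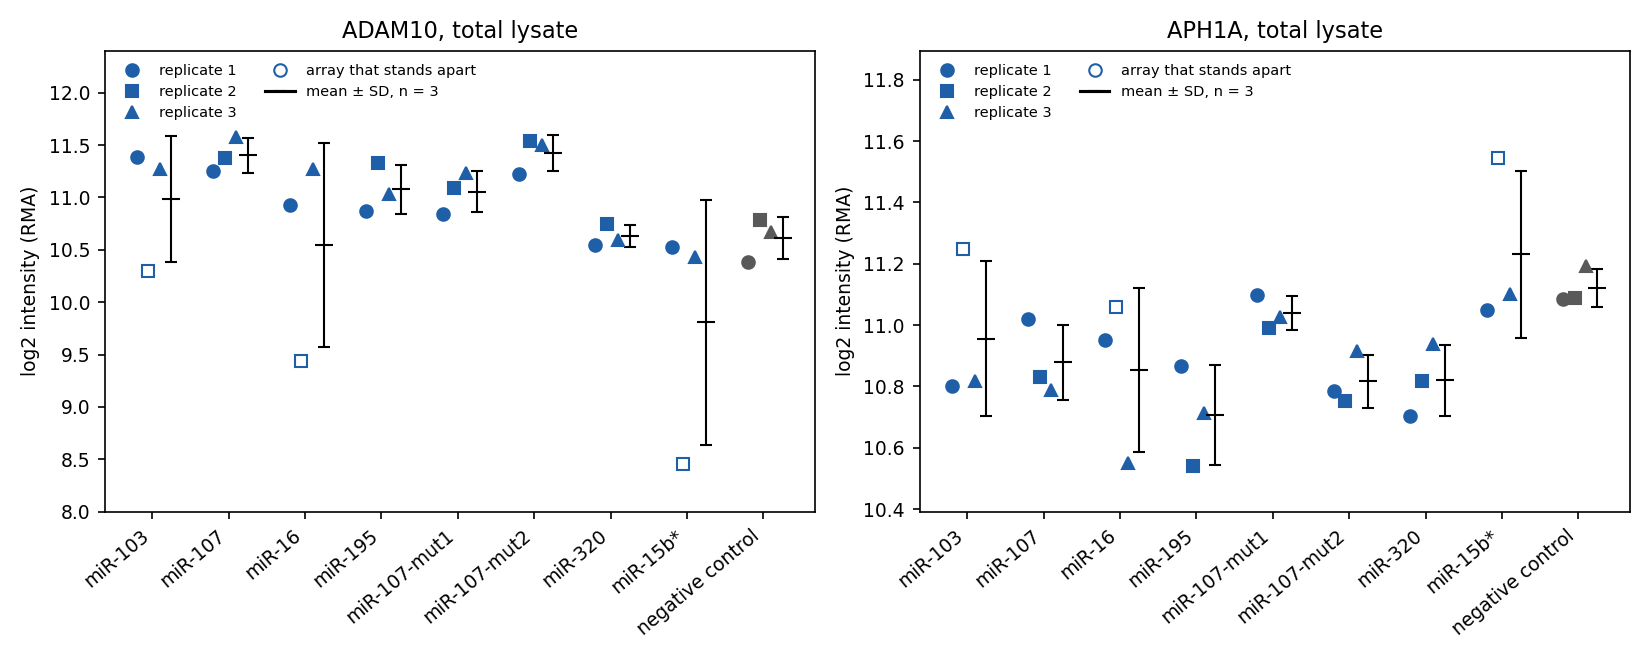
ADAM10 and APH1A on each lysate array, as log2 RMA values, by transfection with the negative control at the right. Bars are group means ± SD (n = 3), and open points are the arrays that stood apart. The open ADAM10 points at 10.30, 9.44 and 8.46 are the lowest of their groups, and the open APH1A points at 11.25, 11.06 and 11.54 are the highest of theirs.

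PSEN2, a catalytic presenilin, had the lowest adjusted p of the members where the 2 seeds were compared in the lysate. It gave 8.14, 8.58 and 7.95 with miR-103 and 8.19, 7.99 and 8.01 with miR-107, against 8.65, 8.90 and 8.29 with miR-16 and 8.53, 8.38 and 8.20 with miR-195. The groups overlapped, and the difference of the means was -0.35 ± 0.11 (adjusted p = 0.057 in limma). With the replicate number as a block the adjusted p was 0.017, without the arrays that stood apart 0.019, and without miR-103 replicate 2 0.011. Against the negative control, at 8.52, 8.22 and 8.25, its changes ran from -0.28 to 0.28 and none was called.

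The remaining 4 members held their lysate levels within narrow limits. APP, the substrate, ran from 12.05 to 12.70 over the 27 arrays, with changes against the control of -0.03 to 0.21 and no call. Its arrays with miR-107 (12.63, 12.55 and 12.57), miR-195 (12.63, 12.66 and 12.62) and miR-107-mut2 (12.65, 12.58 and 12.51) lay above the control arrays (12.45, 12.43 and 12.42), by 0.15, 0.21 and 0.15 (adjusted p = 0.57, 0.39 and 0.51 in limma). The share of all genes that separate so was not counted. The arrays that stood apart gave low APP values: 12.26 (miR-103), 12.16 (miR-16) and 12.05 (miR-15b*). The other arrays of those groups, at 12.46 to 12.70, lay above the control. Without the arrays that stood apart APP still had 0 calls. BACE2 ran from 11.39 to 11.76, and its changes of -0.11 to -0.01 had intervals that together reached from -0.29 to 0.18. Each BACE2 interval, at 95% for its own transfection and not for all 8 jointly, thus reached no lower than -0.29. BACE1 with miR-103 had an interval of -1.05 to -0.62. NCSTN ran from 11.46 to 12.07 with changes of -0.07 to 0.24, and PSENEN from 12.98 to 13.37 with changes of 0.00 to 0.17. The median change of the 8 genes in the lysate lay between -0.08 and 0.02, next to medians of 0.00 to 0.05 over all genes.

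In the Argonaute IP none of the 64 comparisons with the negative control was called, and 4 had an unadjusted p under 0.05 in limma. Of the 64 differences, 48 were below 0, while between 48.6% and 69.5% of all genes were below 0 in the same 8 comparisons. The background was also lower than in the lysate: 2.03% of genes were called with miR-103, 3.83% with miR-107, 1.26% with miR-16, 0.67% with miR-195, 2.21% with miR-320, 0.217% with miR-15b*, 0.742% with miR-107-mut1 and 0.344% with miR-107-mut2. These IP shares depended on the arrays fitted. With miR-107, leaving out any 1 replicate lowered the count, to between 92 and 340 genes against 423 with all arrays. With miR-15b* the count moved either way, to between 6 and 1407 against 24. BACE1 was therefore not found to rise among Argonaute-bound messages with any of the 8 molecules, and its lowest groups in the IP were those of the miR-15/107 group.

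BACE1 in the IP gave 5.52, 5.25 and 5.72 with miR-107, against 5.94, 6.10 and 6.93 with the negative control, so the arrays did not overlap. The difference was -0.83 ± 0.36, with an adjusted p of 0.18 in limma and of 0.027 with the replicate number as a block. Without negative control replicate 3 it was -0.53 (adjusted p = 0.62). miR-103 gave 5.62, 6.14 and 5.50 (-0.57, adjusted p = 0.43), miR-16 gave 5.65, 5.51 and 6.02 (-0.59, adjusted p = 0.51) and miR-195 gave 5.54, 5.50 and 6.23 (-0.57, adjusted p = 0.57). miR-320 gave 5.84, 5.75 and 6.54, miR-15b* 5.22, 5.95 and 6.68, and miR-107-mut2 5.81, 6.22 and 6.45, with differences of -0.28, -0.37 and -0.17. miR-107-mut1 gave 5.79, 6.16 and 7.10, next to the control, a difference of 0.03. After cyclic loess within the IP arrays, the difference with miR-107 was -0.37 (adjusted p = 0.30).

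The comparisons between molecules gave no BACE1 call in the IP either. miR-107 against miR-107-mut1 differed by -0.86 ± 0.36 (adjusted p = 0.16 in limma, 0.022 with the replicate number as a block, with 5.05% of genes called). miR-107 against miR-107-mut2 differed by -0.66 (adjusted p = 0.55, with 0.0362% called). The mean of miR-103 and miR-107 differed from that of miR-16 and miR-195 by -0.12 ± 0.26 (adjusted p = 0.97, with 0.38% called), and the IP comparisons of miR-103 with miR-107 and of miR-16 with miR-195 had 0% called.

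PSENEN and BACE2 were the other members called in the IP against the control with the replicate number as a block. PSENEN gave 8.46, 8.21 and 9.48 with miR-16, against 9.52, 9.23 and 9.85 with the negative control (-0.82 ± 0.33, adjusted p = 0.29 in limma, 0.028 with the replicate number as a block). It gave 9.05, 8.74 and 9.35 with miR-107, against 9.77, 9.69 and 10.21 with miR-107-mut1, without overlap (-0.84, adjusted p = 0.13, 0.011 with the block). PSENEN was also called lower without the block where the mean of the 4 miRNAs of the group was set against miR-107-mut1. In that comparison 688 of 11050 genes were called, 652 of them lower. It was added after the values had been seen, and the PSENEN call was lost under many alternatives, as given at the end. BACE2 gave 5.62, 6.49 and 7.67 with miR-15b*, against 7.66, 7.52 and 8.12 with the negative control (-1.17 ± 0.40, adjusted p = 0.23, 0.017 with the block). The lowest of these miR-15b* values is the IP array that stood apart. APP with miR-103 gave 5.69, 6.28 and 5.90, against 6.14, 6.96 and 6.70 with the control (-0.64, adjusted p = 0.30). ADAM10, NCSTN, APH1A and PSEN2 had no unadjusted p under 0.05 against the control. PSEN2, at 3.59 to 4.26, and ADAM10, at 2.45 to 4.75, lay in the IP near the mean of all probe sets and under the 5.26 of the filter, which they passed through the lysate, so their IP values were not shown to be above background. PSEN2 was the member whose 8 differences were all above 0, from 0.07 to 0.30.

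The replicate number moved with the IP values of several members. Replicate 3 was the highest of its group for PSENEN in 9 of 9 groups, for BACE1, BACE2 and APH1A in 8 of 9 and for NCSTN in 7 of 9, but for APP and PSEN2 in 4 of 9. The spread of all probe sets on an IP array also went with the number, with median SDs of 1.73, 1.77 and 1.94 for replicates 1, 2 and 3. All 9 transfections are present at each number, so the block takes out, gene by gene, an offset shared by the arrays of a number. It does not take out a spread that differs between transfections. IP array SDs were 1.70, 1.56 and 1.66 with miR-107, 1.69, 1.79 and 1.76 with miR-103 and 1.66, 1.72 and 1.88 with miR-16. They were 1.86, 1.84 and 1.99 with the negative control and 1.77, 1.89 and 2.02 with miR-107-mut1. The part of the replicate number and of the spread in the IP results was not tested otherwise. The median difference of the 8 genes was -0.54 with miR-103 (-0.09 over all genes), -0.54 with miR-107 (-0.19), -0.47 with miR-16 (-0.08) and -0.34 with miR-195 (-0.07). It was -0.41 with miR-15b* (-0.17), -0.13 with miR-107-mut2 (-0.04), -0.06 with miR-320 (0.00) and 0.06 with miR-107-mut1 (0.01). These medians are on the deposited values, where the array spread differed between transfections as given above. A shift of the 8 genes cannot be told apart from that difference here.

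**Figure D4:**
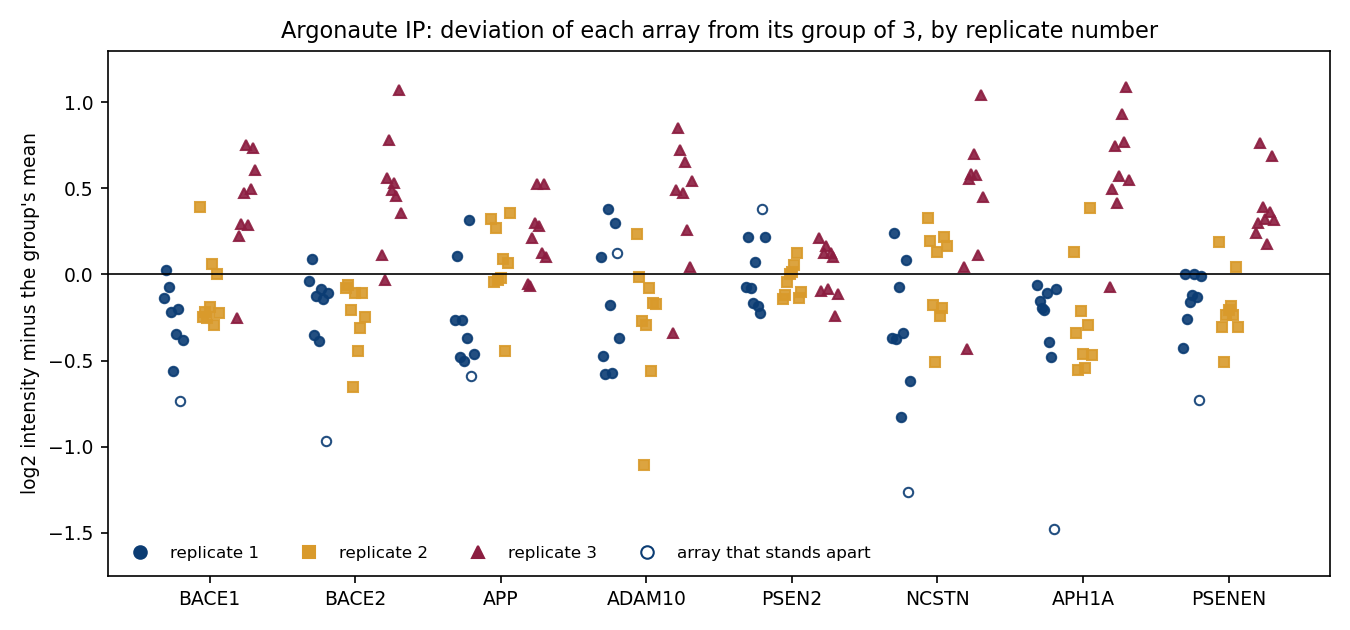
Deviation of each IP array from its group mean, in log2 units, for each of the 8 genes by replicate number. Each point is 1 of the 27 arrays, and the open points are the miR-15b* array that stood apart. For BACE1, BACE2 and APH1A the replicate 3 points are the highest of their group in 8 of 9 groups, for PSENEN in 9 of 9.

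Whether a message changed differently in the IP than in the lysate was tested as an interaction over the 54 arrays, for each of the 8 molecules and for the 2 pooled pairs. None of the 80 terms of the 8 genes was called, and 6 had an unadjusted p under 0.05 in limma. Over all genes, 6.54% were called with miR-103 and miR-107 pooled and 2.91% with miR-16 and miR-195 pooled. For BACE1 the IP change minus the lysate change was 0.13 ± 0.33 with miR-103 and miR-107, with an interval of -0.54 to 0.81 (adjusted p = 0.86), and 0.16 ± 0.33 with miR-16 and miR-195 (adjusted p = 0.87). The interaction with the lowest adjusted p with miR-103 and miR-107 was that of PSEN2, 0.46 (adjusted p = 0.19), followed by APP, -0.65 (adjusted p = 0.20).

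This answer depended on the scale. The IP arrays had a smaller spread over all probe sets (SD 1.35 to 2.02) than the lysate arrays (SD 2.50 to 2.57), and after cyclic loess over all 54 arrays the BACE1 term with miR-103 and miR-107 was 0.79 ± 0.18 (adjusted p = 0.0037 in limma, with 5.65% of genes called). It was then 0.65 with miR-16 and miR-195 (adjusted p = 0.036, with 3.13% called). On the deposited values, therefore, the IP change of BACE1 was not found to differ from its lysate change. The interval with miR-103 and miR-107, -0.54 to 0.81, was too wide to call the changes equal. On the loess values BACE1 was less far below the control in the IP.

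In control cells, how much of each message was with Argonaute was compared with the lysate after cyclic loess, which sets the bulk of the genes equal. The deposited values alone put the median gene at -4.20 in the IP relative to the lysate. Relative to that bulk, BACE2 was higher in the IP by 0.36 ± 0.13 (adjusted p = 0.010 in limma) and PSENEN differed by 0.08 ± 0.15 (adjusted p = 0.65). BACE1 was lower by a change of -0.48 ± 0.15 (adjusted p = 0.0040), PSEN2 by -0.42 (adjusted p = 0.039) and APH1A by -0.51 (adjusted p = 0.029). NCSTN (-1.38, adjusted p = 2.6e-08) and APP (-1.64, adjusted p = 2.5e-08) were lower by more. ADAM10 gave -2.55 (adjusted p = 5.7e-07), but like PSEN2 it was not shown to be above background in the IP, where the control arrays gave 3.40, 3.60 and 4.32, so these sizes are uncertain. In this comparison 75.9% of all genes were called, 4281 higher and 4111 lower, so a call carries little by itself. The BACE2 call was lost when arrays were centred on their median (0.47, adjusted p = 0.082), where PSENEN was called (0.77, adjusted p = 8.8e-04), and the BACE1 call was lost without negative control IP replicate 1 (-0.34, adjusted p = 0.058). The APH1A call was lost with median centring (adjusted p = 0.14), with quantile normalization (0.13) and without control IP replicate 1 (0.0503) or 2 (0.14) or control lysate replicate 2 (0.059) or 3 (0.078). The PSEN2 call was lost with median centring (adjusted p = 0.22), with quantile normalization (0.068) and without control IP replicate 2 (0.095) or 3 (0.15) or control lysate replicate 1 (0.15). The NCSTN and APP calls held under each of these.

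**Figure D5:**
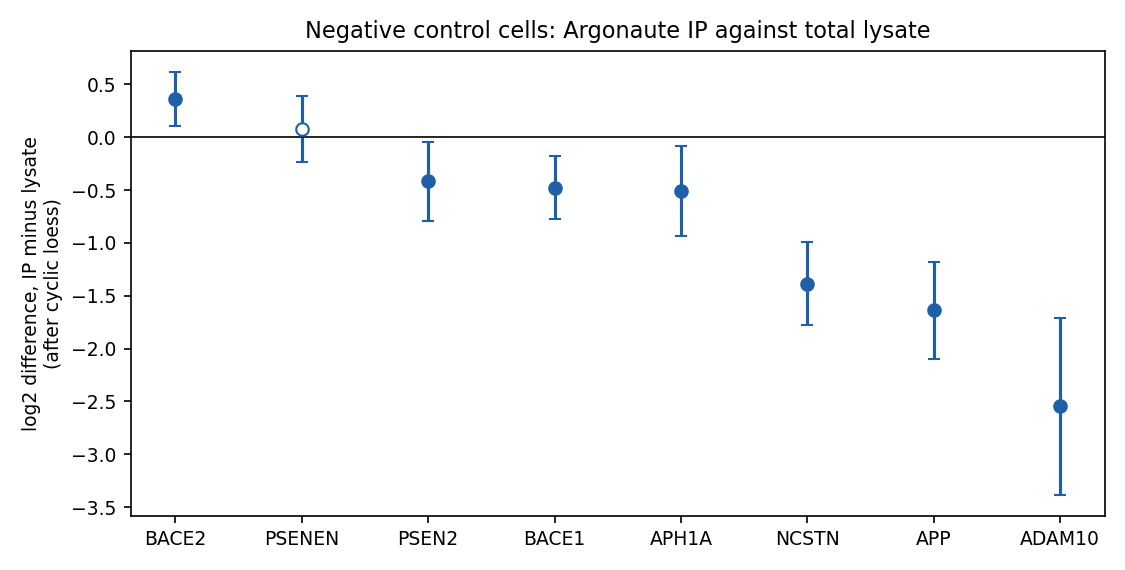
Negative control IP against negative control lysate for the 8 genes after cyclic loess over all 54 arrays, as log2 difference with 95% confidence intervals. BACE2 lies highest at 0.36 and ADAM10, not shown to be above background in the IP, lowest at -2.55.

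The wider amyloid pathway was read from 5 lists with 63 genes. Over all genes, 1.46% to 9.56% were called higher and 1.5% to 8.88% lower in a lysate comparison with the control, and the counts of each list stand beside these shares. In the lysate, the 9 tested genes of amyloid-β degradation and uptake gave 15 calls above the control and 0 below in 72 comparisons. ECE1 and ECE2, endothelin-converting enzymes that degrade amyloid-β, gave 11 of these. ECE1 ran from 11.76 to 11.94 with miR-103 and from 11.70 to 12.01 with miR-107, against 10.65 to 11.53 with the negative control, changes of 0.83 (adjusted p = 0.0066 in limma) and 0.78 (adjusted p = 0.010). It was also called with miR-16 (0.69), miR-107-mut1 (0.75), miR-107-mut2 (0.66) and miR-15b* (0.93). ECE2 was called with miR-103 (0.74), miR-107 (0.56), miR-16 (0.67), miR-195 (0.61) and miR-15b* (0.82), its miR-103 arrays running from 8.07 to 8.61 and its control arrays from 7.46 to 7.60. Since miR-15b* is among the highest for both genes, and all comparisons share the same 3 control arrays, these rises did not follow BACE1, which miR-15b* left near the control.

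The 18 tested sorting genes gave 17 calls below the control and 5 above in 144 lysate comparisons. GGA3, an adaptor that carries BACE1 to lysosomes, was the sorting gene called lower in both fractions with miR-103 and miR-107. Its lysate arrays ran from 9.24 to 9.58 with miR-103 and from 9.16 to 9.51 with miR-107, against 10.12 to 10.19 with the negative control, changes of -0.76 (adjusted p = 7.8e-04 in limma) and -0.85 (adjusted p = 2.3e-04). It was called lower with miR-107-mut2 (-0.88), miR-107-mut1 (-0.51) and miR-195 (-0.46) too. In the IP its arrays ran from 7.69 to 8.12 with miR-103 and from 6.76 to 7.95 with miR-107, against 9.36 to 9.63 with the control, changes of -1.52 (adjusted p = 0.036) and -2.10 (adjusted p = 0.0025). The IP changes with the other molecules were not called but were below 0 too. They were -1.29 with miR-195, -1.19 with miR-107-mut1, -1.17 with miR-16, -1.07 with miR-107-mut2, -0.72 with miR-15b* and -0.31 with miR-320. A lower GGA3 in the IP was thus not particular to miR-103 and miR-107. The part of the IP array spread given above was not tested here. RTN1, of the reticulon family whose members bind BACE1, was called higher in 5 lysate comparisons, by 0.29 to 0.42. VPS29, a retromer subunit, was called lower in the IP with miR-103 (-1.11, adjusted p = 0.036) and miR-107 (-0.97, adjusted p = 0.0497), and its partner VPS35 higher in the IP with miR-320 (0.83, adjusted p = 0.025). Their IP arrays ran from 2.71 to 4.89 and from 2.79 to 4.47, under the 5.26 of the filter, so neither was shown to be above background in the IP and the sizes are uncertain.

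The 3 tested further secretase genes gave 3 calls above the control in 24 lysate comparisons, all of them APH1B, the second APH1 gene, which was named after its values were seen. The 9 tested genes of the APP family and its adaptors gave 4 calls above and 3 below in 72, and the 11 tested secretase substrates 6 above and 3 below in 88. In the IP these lists gave 1 call, that of DAB2, an endocytic adaptor that binds the APP tail, with miR-320 (1.43, adjusted p = 0.0089 in limma), where its arrays ran from 5.29 to 6.33, against 4.30 to 4.82 with the control, which is also under 5.26. Beside these results a neuronal marker moved. ENO2, neuron-specific enolase, was called higher in the lysate with miR-16 (1.51), miR-195 (1.28), miR-103 (1.09), miR-107 (0.99), miR-107-mut2 (0.92) and miR-107-mut1 (0.58), and accounted for 6 of the 7 calls of the 5 neuronal markers, all above the control. The summed log2 level of the 5 was 38.3 to 40.1 over the arrays of the 4 miRNAs of the group and 37.3 to 38.0 in the control. It was not particular to the group: miR-107-mut1 gave 38.6 to 38.9 and miR-107-mut2 38.8 to 39.0. The sum was 37.6 to 38.7 with miR-320 and 37.6 to 39.2 with miR-15b*. ENO2 is part of the sum, and the 5 markers did not move together. Of the 5 changes, 3 were below 0 with miR-195 (median -0.07), 2 with miR-16, 1 with miR-103 and 1 with miR-107. The sum therefore does not show a shift of the neuronal markers as a set. The 4 tested glial markers gave 1 call, above the control, and the 1 tested marker of other cell types, CD68, gave none. The part of these markers in the results was not tested.

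The genes whose lysate values tracked BACE1 most closely over the 27 arrays were UBE2C (Pearson r = 0.944), PHC1 (0.936), TROAP (0.934), PRKACA (0.933) and KIFC1 (0.932). The arrays share 9 transfections, so these correlations describe a pattern over molecules. These genes were picked for following BACE1 over these same arrays, so the groups in which they were called are a description and no separate finding. All 5 were called lower in the lysate with miR-103, miR-107, miR-16, miR-195 and miR-107-mut2, and none with miR-320, miR-15b* or miR-107-mut1. UBE2C, a ubiquitin-conjugating enzyme of mitotic exit, changed by -1.57 with miR-103, -1.80 with miR-107, -1.35 with miR-16, -1.43 with miR-195 and -1.41 with miR-107-mut2. KIFC1, a mitotic kinesin, changed by -1.87, -1.97, -1.77, -1.88 and -1.70 in the same order. TROAP changed by -1.86 to -1.38 and PRKACA, a catalytic subunit of protein kinase A, by -0.90 to -0.69, next to -0.83 to -0.58 for BACE1, while PHC1, a Polycomb protein, changed by -0.39 to -0.26. In the IP the closest genes were TADA3 (0.917), ZNFX1 (0.909), HGSNAT (0.900), SMIM7 (0.899) and SUMF2 (0.899). Among the members, APH1A had the highest correlation with BACE1 in both fractions, 0.66 in the lysate and 0.83 in the IP. ADAM10 and APP ran against BACE1 in the lysate (-0.52 and -0.44) and with it in the IP (0.59 and 0.62). The median over all genes was -0.02 in the lysate and 0.38 in the IP, where the IP arrays share the replicate pattern given above.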

How the data were processed

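Each of the 54 RNA samples from H4 cells has 1 array (Human Gene 1.0 ST), and per the submitters' processing notes the authors normalized them with RMA in Affymetrix Expression Console 1.1. The deposited values are on a log2 scale, as read from their range, since the base is not given in the sources used here. Fractions were on different levels as deposited, so they were fitted apart.

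The platform annotation gives 1 symbol to 19460 of the 33297 probe sets, more than 1 to 1754 and no symbol to 12083. Where a gene had several probe sets (769 genes), that with the highest mean was used. Genes with a mean over all arrays under 5.26, the lowest 40%, were left out. limma 3.58.1 in R 4.3.3 (lmFit, eBayes, two-sided) was fitted to the 9 groups of a fraction with Benjamini-Hochberg adjustment over 11050 genes, or to all 54 arrays for interactions and for the control IP against lysate (that comparison after cyclic loess). The number of arrays limits the precision. The fits were run on simulated data with independent noise for each array. Those data held no deviation shared by a replicate number and no arrays that stood apart, so the fits were not tested under these. Figures were drawn with matplotlib 3.10.9.

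Samples of the same replicate number carry the same code in the labels, whose meaning is not given. Deviations from group means correlated by 0.27 on average in the IP (-0.15 to 0.67) and 0.31 in the lysate (-0.47 to 0.95) between arrays of the same number, and by -0.13 and -0.14 between arrays of other numbers. Deviations within a group cancel out, so the values for other numbers largely follow from those for the same number and are no separate contrast. Of 108 pairs of the same number, 84 in the IP and 79 in the lysate were over 0.1. Arrays of the same number thus deviated together on average, but not in every pair. The fit was set without the number, and the fit with it as a block, which gave more calls, is given where it changed a call. Replicates are labelled biological, with no word on separate cultures or days, so p-values measure the spread between these samples, part of which may be technical.

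Members and lists were chosen with earlier results of these data known. The 8 genes were named with values. A list gene was named where it was called in at least 4 of 8 lysate comparisons or in any IP comparison, and the 5 genes with the highest correlation with BACE1 in each fraction were named. Alternatives changed the filter, the normalization, the eBayes settings, the samples fitted, the array weights, the block, the probe set rule and the control, and left out each replicate. Those without the arrays that stood apart (a median correlation more than 0.02 in the lysate or 0.06 in the IP below the median array) were chosen after seeing the data. Signal over background was not analysed here.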

Additional observations from a re-analysis of the deposited data

How the results depend on the processing

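The lysate calls of BACE1 against the negative control with miR-103, miR-107, miR-16, miR-195 and miR-107-mut2, and with miR-107 against miR-107-mut1, kept their direction and their side of the threshold under every alternative run, with changes of -0.88 to -0.69, -0.86 to -0.69, -0.78 to -0.57, -0.80 to -0.63, -0.61 to -0.44 and -0.74 to -0.59. The miR-320 call was lost with only the arrays compared (-0.40, adjusted p = 0.084 in limma), and when 1 replicate was left out its change ran from -0.47 to -0.30. The BACE1 difference between control IP and control lysate ran from -0.62 to -0.34 when 1 replicate was left out. Array quality weights called BACE1 lower with miR-107-mut1 against the control (-0.20, adjusted p = 0.0092), with miR-107 against miR-107-mut2 (-0.25, adjusted p = 0.040) and with miR-103 and miR-107 against miR-16 and miR-195 (-0.094, adjusted p = 0.026) in the lysate. The estimate of these weights stopped before it converged, and with them 21.4% to 66.8% of all lysate genes were called. The replicate block called BACE1 in the IP with miR-107 against the control (-0.83, adjusted p = 0.027) and against miR-107-mut1 (-0.86, adjusted p = 0.022). Cyclic loess over all arrays called the BACE1 interactions with miR-103 (0.82), miR-107 (0.76), both (0.79) and miR-16 with miR-195 (0.65). The cause was not tested.

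Of the 64 comparisons of the 8 genes with the control in the lysate, 6 were called on the main setting, 7 with the replicate block, 15 without the arrays that stood apart and 32 with array quality weights. In the IP the count was 0, with 3 under the replicate block, 1 with array quality weights and 1 without miR-15b* replicate 3, so that leaving out 1 replicate gave 0 to 1. Over all genes, a comparison with the control gave 671 to 2834 calls with the block, against 327 to 1906 without it, in the lysate, and 151 to 1950, against 24 to 423, in the IP. With only the arrays compared, the counts were 50 to 3012 in the lysate and 0 to 1330 in the IP. With array quality weights they were 2367 to 7376 and 5 to 1263.

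Of 6105 values of the other 7 genes under an alternative, 31 lost a call, 90 gained a call and 4 passed the threshold on the other side of 0. ADAM10 with miR-16 in the lysate was 0.26 with array quality weights and 0.49 without the arrays that stood apart, against -0.07. APP with miR-16 in the lysate was 0.21 with array quality weights. PSENEN in the IP, the 4 miRNAs of the group against miR-320, was 0.56 after cyclic loess within the fraction. Direction was not compared where a value passed the threshold under neither setting. The PSENEN call of the 4 miRNAs against miR-107-mut1 in the IP (-0.89 ± 0.26, adjusted p = 0.043 in limma) was lost under many alternatives, loess among them (adjusted p = 0.21). In that comparison, added after the values had been seen, 688 of 11050 genes were called, 652 of them lower.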
